A study of Mus musculus with 6 samples.

Results

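The cytosolic ribosomal proteins were taken by symbol from a table of estimated counts for mouse liver: every row whose Ensembl identifier maps in GENCODE M21 to a symbol of the Rpl or Rps series, Rplp0 to Rplp2 or Rpsa, without the Rps6 kinases. The symbol rule used no measured value, though the set was chosen with earlier results of these data known, and it gave 87 of 20894 rows. Of these, 75 are genes of ribosomal proteins, 11 are paralogues or copies of them and 1, Rps19bp1, encodes a protein that binds RPS19 and is not part of the ribosome. Liver came from mice carrying the Irf3LSL-2D allele, which yields the IRF3-2D form of the transcription factor IRF3 where Cre removes a stop cassette. The IRF3-2D group had received AAV8-TBG-Cre and the Ctrl group AAV8-TBG-GFP, both adeno-associated virus vectors whose TBG promoter is active in hepatocytes. Both groups carried the allele, both received ethanol at 3 g/kg by intraperitoneal injection, and all livers were collected 2 h later. Each group held 3 samples, which the labels number without naming the mouse, so p-values here reflect how far these samples spread, and that spread may be technical. No group had Cre without the allele, so effects of Cre or GFP cannot be told apart from those of IRF3-2D. The labels state neither age nor sex.

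Ribosomes are built from a small and a large subunit, each an assembly of ribosomal RNA with many small basic proteins that are needed in matched amounts. Mammalian messenger RNAs of these proteins begin with a run of pyrimidines at their first bases, the terminal oligopyrimidine or TOP motif, through which the kinase complex mTORC1 controls their translation. Liver makes large amounts of secreted protein and holds many ribosomes.

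Several members have near-identical copies elsewhere in the genome, and these sequences are shown because they decide how far a row can be read on its own. The coding sequence of Rps27, a zinc finger protein of the small subunit (ENSMUSG00000090733, chr3:90212522-90213651, minus strand, GRCm38), equals that of Rps27rt (ENSMUSG00000050621, chr9:114982366-114982739, minus strand), a copy with 1 annotated transcript, over all 255 bases. Both are given 5′ to 3′ from the GENCODE M21 transcripts, with no capitals because no base differs.
Rps27: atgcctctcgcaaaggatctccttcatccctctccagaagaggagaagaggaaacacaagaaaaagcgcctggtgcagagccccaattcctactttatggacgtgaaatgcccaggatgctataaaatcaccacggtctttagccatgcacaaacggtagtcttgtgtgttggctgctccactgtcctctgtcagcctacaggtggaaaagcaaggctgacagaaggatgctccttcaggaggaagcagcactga
Rps27rt: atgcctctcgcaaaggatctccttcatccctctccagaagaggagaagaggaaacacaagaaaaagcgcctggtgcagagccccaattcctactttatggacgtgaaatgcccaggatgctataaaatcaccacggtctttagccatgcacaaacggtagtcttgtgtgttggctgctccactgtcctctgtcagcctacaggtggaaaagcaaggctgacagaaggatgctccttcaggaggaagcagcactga
Counts of Rps27 were 2, 0 and 0 in Ctrl and 4, 4 and 0 in IRF3-2D, whereas those of Rps27rt were 827, 784 and 946 against 765, 670 and 723. The copy held 99.9% of the pair's counts in Ctrl and 99.6% in IRF3-2D, yet reads from the coding part cannot be assigned to a locus, and the pair is read as 1 unit here. Rpl10, of the large subunit, and Rpl10-ps3 are likewise identical over 645 coding bases, and Rpl10-ps3 held 76.1% of their counts in Ctrl and 78.5% in IRF3-2D. Rpl9 and Rpl9-ps6 differ at 1 of 579 bases, and there the copy was the row at 0.
Rpl36a (ENSMUSG00000079435, chrX:134585654-134588062, plus strand) and Rpl36al (ENSMUSG00000049751, chr12:69182731-69184083, minus strand), which encode nearly the same large subunit protein, are shown as the opposite case. Their coding sequences differ at 39 of 321 bases (87.9% identity). The first 150 bases are shown, with the 23 that differ in capitals.
Rpl36a: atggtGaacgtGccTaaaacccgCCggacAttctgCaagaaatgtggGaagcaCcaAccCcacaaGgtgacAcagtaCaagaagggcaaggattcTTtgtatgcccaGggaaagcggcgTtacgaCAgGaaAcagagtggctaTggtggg
Rpl36al: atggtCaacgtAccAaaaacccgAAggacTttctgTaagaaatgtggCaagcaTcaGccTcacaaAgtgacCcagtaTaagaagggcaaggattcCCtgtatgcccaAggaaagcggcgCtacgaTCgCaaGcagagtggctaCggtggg
Capitals lie all along the stretch, and both rows held at least 765 counts in every library, so most reads of this pair can be told apart, unlike those of Rps27.

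Start sites of the members were compared for the pyrimidine run of the TOP motif, with RefSeq promoters on GRCm38.p6. A run of C or T of at least 8 bases with 1 or more of its bases within 5 bases of the annotated start, read on the gene's own strand, was found in 24 of 76 member promoters (31.6%), against 3194 of 32851 promoters of all genes (9.72%). The mirror feature, a run of A or G of the same length, was in 3 of the 76 (3.95%) and in 10.9% of all promoters. Promoters were found for 64 of the 87 rows. Examples with long runs are the large subunit genes Rpl7a, Rpl27a and Rpl15, shown from 60 bases before the start to 20 bases after it with the run in capitals.
Rpl7a, chr2:26910747-26910826, plus strand: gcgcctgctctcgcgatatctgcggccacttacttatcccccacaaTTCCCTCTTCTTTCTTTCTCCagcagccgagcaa
Rpl27a, chr7:109519135-109519214, plus strand: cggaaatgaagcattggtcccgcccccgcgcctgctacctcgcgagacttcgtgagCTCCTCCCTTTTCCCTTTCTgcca
Rpl15, chr14:18270967-18271046, minus strand: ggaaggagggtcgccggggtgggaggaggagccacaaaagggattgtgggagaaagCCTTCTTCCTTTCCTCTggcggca
The runs are 21, 20 and 17 bases long. A match is a description of these letters and not evidence of a functional site.

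Some members stood at or near 0 in every library. Mean counts over the 6 libraries ran from 0 to 9368 in Rps2, and 24 of the 87 rows, 18 of them genes of ribosomal proteins, had a mean count under 100. Rpl7, Rpl10l, Rpl39l and Rpl9-ps6 had no count at all. Liver cells need Rpl7, Rpl3 and Rpl5, yet Rpl3 had 1 count in 1 library and Rpl5 had 0, 0 and 2 counts in Ctrl and 2, 0 and 2 in IRF3-2D. Rpl26 had 4, 8 and 7 counts in Ctrl and 1, 7 and 17 in IRF3-2D. Values this low are not credible as levels of essential genes, so a row may hold a fraction of a gene's output, and other rows may be affected to a lesser degree. With Rps27, Rpl3l and Rps4l these 10 rows did not pass edgeR's default filter on low counts and were not tested, whereas Rpl39l and Rpl10l are known as testis forms. Of the 77 tested rows, 70 were genes of ribosomal proteins, 6 were paralogues or copies and 1 was Rps19bp1. Rpl6 and Rpl37a were not analysed here.

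**Figure D1:**
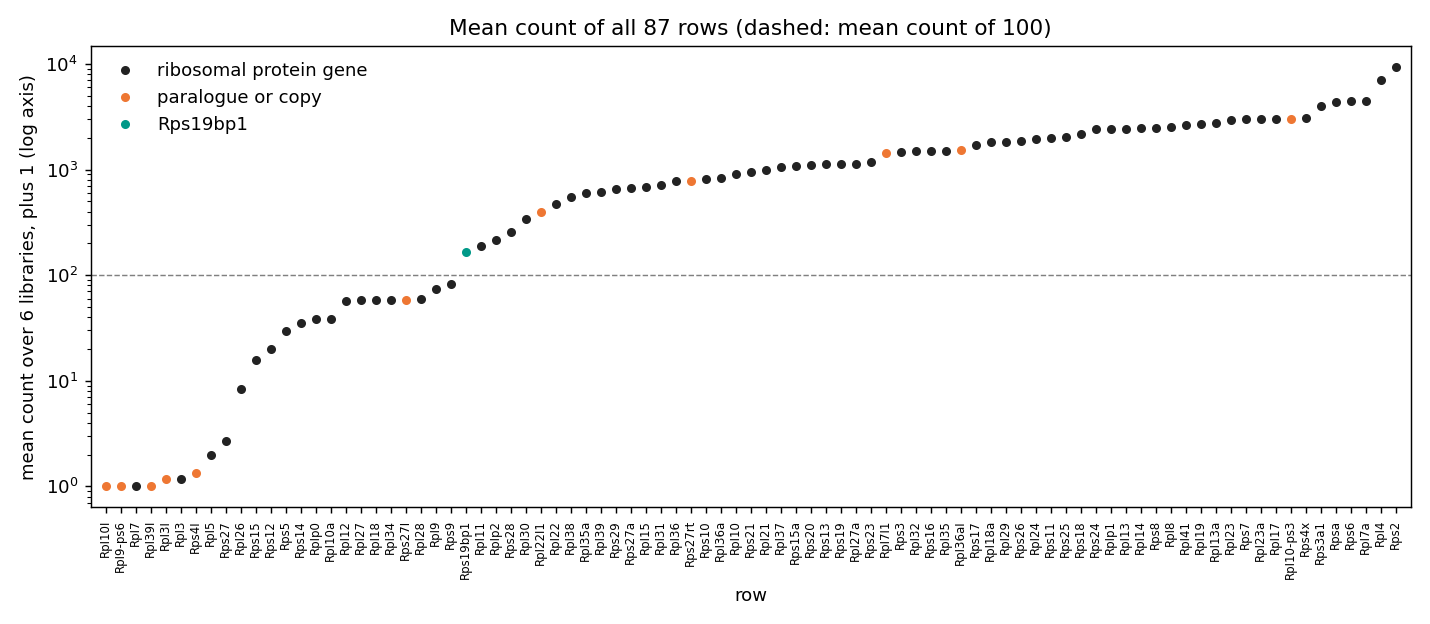
Mean deposited count over the 6 libraries, plus 1, on a log axis for all 87 rows in rising order, coloured by class. 24 rows have a mean count under 100, marked by the dashed line, and Rps2 is the highest at 9368.

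The libraries differed between the groups in ways that bear on every member. Totals were 13940893 to 14830629 counts in Ctrl and 12054096 to 13606973 in IRF3-2D, and the 20 most abundant genes, none of them a member, made up 33.3% ± 1.09 of Ctrl counts but 22.8% ± 1.47 of IRF3-2D counts (mean and SD of 3 libraries). The TMM factors that rescale these totals lay between 0.822 and 0.879 for Ctrl and between 1.12 and 1.23 for IRF3-2D. TMM scaling therefore placed the middle of all 10802 tested genes at a log2 fold change of 0.03, while scaling by library totals alone placed it at 0.49, and both scales are given below. The level of Irf3 was 49.7 ± 9.34 CPM (counts per 1e6, TMM scaled) for Ctrl and 120 ± 15.3 for IRF3-2D (SD, n = 3 each, edgeR adjusted p = 0.00152), and so was higher in IRF3-2D.

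The 87 rows together took a like share of the library totals in both groups. With 18 ribosomal protein genes under a mean count of 100, their sum may miss part of the ribosomal protein RNA. Summed over the 87 rows, counts were 126314, 116910 and 127552 in Ctrl and 117831, 111267 and 118400 in IRF3-2D. That was 0.906%, 0.808% and 0.860% of the library totals in Ctrl and 0.887%, 0.923% and 0.870% in IRF3-2D, and the groups overlap (0.858% ± 0.0492 against 0.893% ± 0.0271, SD, n = 3 each). Once the 20 most abundant genes were taken out of the totals, the share was 1.29% ± 0.0945 for Ctrl and 1.16% ± 0.0129 for IRF3-2D, and the lowest Ctrl library, at 1.19%, lay above the highest IRF3-2D library, at 1.17%. On the TMM scale the sum was 10308, 9824 and 9959 CPM in Ctrl and 7614, 7530 and 7752 CPM in IRF3-2D, with no overlap. Without mitochondrially encoded genes in the totals the shares were 0.972% and 0.974%. The direction for the whole set thus rests on the scale: against the library total it did not separate the groups, and against the middle of the transcriptome it was lower in IRF3-2D. In whole liver, fewer cells of a type and less RNA per cell cannot be told apart.

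**Figure D2:**
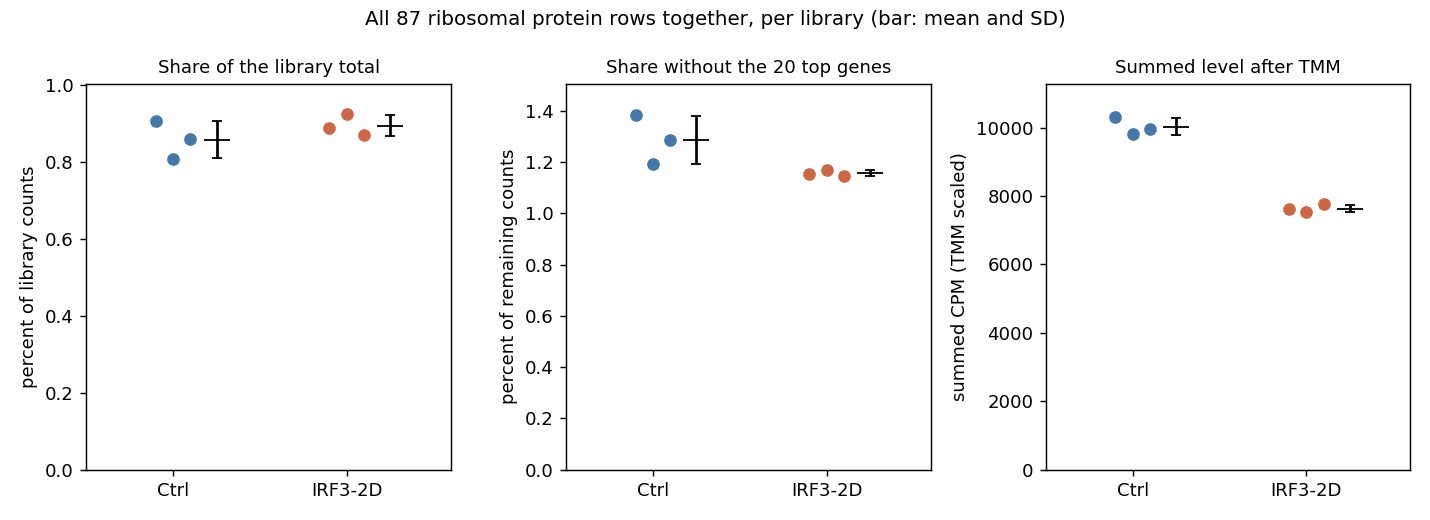
Summed level of the 87 rows in each library, as percent of the library total (left), as percent of the total without the 20 most abundant genes (middle) and as summed TMM-scaled CPM (right). Points are libraries, and the bars give the mean and SD of 3. The groups overlap on the left (0.858% and 0.893%) and separate on the right (10030 and 7632 CPM).

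With TMM scaling, 39 of the 77 tested rows were called lower in IRF3-2D liver at an adjusted p under 0.05 (edgeR quasi-likelihood F-test, Benjamini-Hochberg over all 10802 genes), where 13.1% of all tested genes were, and 1 was called higher, where 13.2% were. The falls were small, from 1.22-fold to 1.86-fold, and the median log2 fold change was -0.37. All 39 had 3 IRF3-2D values below 3 Ctrl values, and 53 of the 77 rows had, against 21.2% of all tested genes. With library totals alone, 1 row was called lower and 12 were called higher, where 5.29% and 41.6% of all tested genes were, and the median was 0.08. On that scale 3 rows lay fully below Ctrl and 18 fully above it, against 7.16% and 51.7% of all tested genes. Against the middle of all tested genes the members stood 0.40 lower on the log2 scale with either scaling, and 71 of the 77 lay below that middle with TMM and 71 with library totals. A change of scale moves all genes together and so leaves this distance nearly as it was, whereas the calls test distance from 0. Abundant genes were lower more often: of the 3320 tested genes with a mean count of at least 500, 25.8% were called lower (median -0.06), and of the 56 members among them 38 were (median -0.37). DESeq2 called 47 members lower and limma-voom called 43, each including all 39. Without IRF3-2D replicate 1 the count was 24 and without IRF3-2D replicate 2 it was 22, and 20 of the 39 kept their call when any 1 of the 6 libraries was left out.

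**Figure D3:**
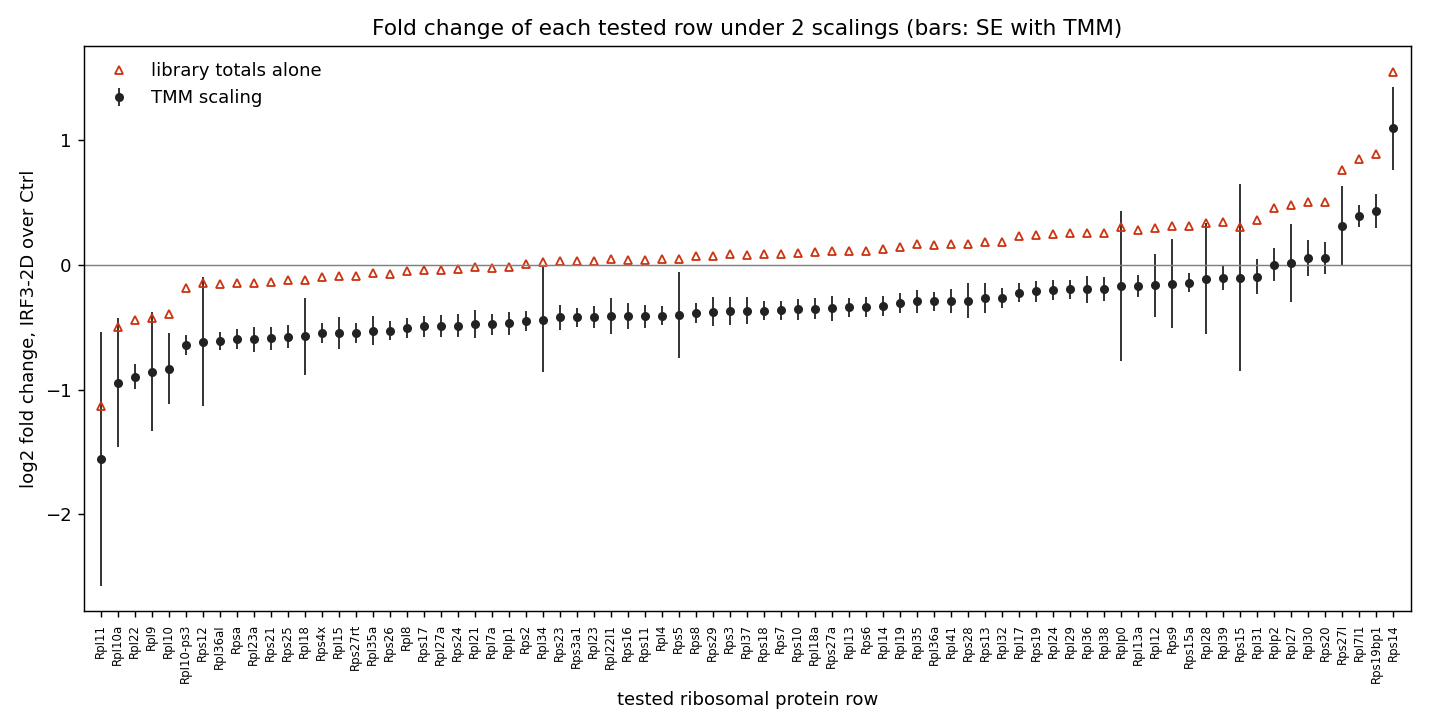
Log2 fold change of IRF3-2D over Ctrl for the 77 tested rows, ordered by the TMM value. Filled points with bars are TMM values and their SE, and open triangles are values with library totals alone. With TMM 69 rows lie below 0, and with library totals 25 do and 52 lie above it.

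Rows of both subunits were called lower. Of 44 tested rows of the large subunit, 19 were called lower and 1 higher (median log2 fold change -0.35), and of 32 rows of the small subunit 20 were called lower (median -0.38). On the higher side of the small subunit edgeR called 0 rows, 1 passed an unadjusted p of 0.05, and DESeq2 and limma-voom called 1 each, Rps14. On library totals the calls were 1 lower and 7 higher in the large subunit, and 4 higher in the small subunit. Of all tested genes, 5.29% were called lower and 41.6% higher on that scale, and 13.1% and 13.2% with TMM. Rows called lower numbered 11 in the large subunit without IRF3-2D replicate 1 or 2 and 12 without Ctrl replicate 2 or 3. For the small subunit the lowest were 13 without IRF3-2D replicate 1 and 11 without IRF3-2D replicate 2. Whether the subunits differ from each other was not tested. Of the 23 tested members with a pyrimidine run of 8 or more at the start, 12 were called lower (median log2 fold change -0.36), and of the 35 with a shorter run 17 were (median -0.37), where 13.1% of all tested genes were. On library totals the calls lower were 0 and 1, and the medians were 0.10 and 0.08. The split rests on annotated starts, so it may not separate genes with the TOP motif from genes without it. Rps25, with a longer run just outside the 5 bases allowed, counts among the shorter runs.

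Rpl22, an RNA-binding protein of the large subunit that is dispensable for general translation and known for roles in lymphocytes, was the lowest of the called members. Rpl22 (ENSMUSG00000028936, chr4:152325742-152334071, plus strand) had 543, 571 and 574 counts in Ctrl and 361, 338 and 419 in IRF3-2D, which is 44.3, 48.0 and 44.8 CPM against 23.3, 22.9 and 27.4. The groups are far apart: the highest IRF3-2D library lay well below the lowest Ctrl library. Rpl22 fell 1.86-fold (log2 fold change -0.90, SE 0.10, adjusted p = 0.00101 by edgeR). It was the single member called lower with library totals too (log2 fold change -0.45, adjusted p = 0.00586), and it was called under each alternative of scaling, filter and tool and without any 1 library, between -0.45 and -0.996. Its row shares 6.79% of its 31-base words with other genes. Its paralogue Rpl22l1, which can take its place in the ribosome, stood at 27.5, 35.2 and 37.3 CPM in Ctrl and 22.1, 27.3 and 25.7 in IRF3-2D. The Rpl22l1 groups do not overlap by a narrow margin, and the difference was not called (log2 fold change -0.41, SE 0.14, adjusted p = 0.0744, and 0.05 with library totals alone).

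Other rows of the large subunit among the smallest adjusted p-values were Rpl36al, Rpl10-ps3 and Rpl8. Rpl36al stood at 138, 135 and 141 CPM in Ctrl and 89.4, 89.5 and 92.5 in IRF3-2D, with little spread within either group, and fell 1.52-fold (log2 fold change -0.61, SE 0.07, adjusted p = 0.00128). With library totals alone the 2 groups of Rpl36al still did not overlap, at 118 ± 6.11 and 106 ± 3.35 CPM (SD, n = 3 each), but the row was not called (adjusted p = 0.161). Its near twin Rpl36a fell 1.22-fold (log2 fold change -0.29, adjusted p = 0.0292), a value that was 0.16 with library totals alone and whose call was lost when any 1 of the 6 libraries was left out (-0.27 to -0.33). Rpl10-ps3 fell 1.56-fold (275 ± 10.9 against 177 ± 7.45 CPM), while Rpl10 was uneven in Ctrl, at 115, 51.3 and 92.1 CPM, against 47.9, 40.1 and 57.2 in IRF3-2D, and was not called (adjusted p = 0.0710). Summed, Rpl10 and Rpl10-ps3 had 4727, 4035 and 4605 counts in Ctrl and 3609, 3129 and 3520 in IRF3-2D, a log2 ratio of mean CPM of -0.68. The 3 IRF3-2D sums were below the 3 Ctrl sums. Rpl8, which lies near the peptidyl transferase centre, fell 1.42-fold (219 ± 5.74 to 155 ± 5.91 CPM). With library totals alone neither Rpl8 nor Rpl10-ps3 was called. There the log2 fold change was -0.185 for Rpl10-ps3 (edgeR adjusted p = 0.105) and -0.40 for Rpl10 (adjusted p = 0.295).

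In the small subunit Rpsa, also known as the laminin receptor, stood at 407, 393 and 371 CPM in Ctrl and 256, 267 and 252 in IRF3-2D. Rpsa fell 1.51-fold (log2 fold change -0.60, SE 0.08, adjusted p = 0.00218). Its groups overlap with library totals alone, at 334 ± 20.8 and 303 ± 22.4 CPM (SD, n = 3 each), and 31.01% of its words are shared with other genes. Rps4x, which is X-linked in mouse, stood at 287, 264 and 267 CPM in Ctrl and 188, 181 and 190 in IRF3-2D (1.46-fold lower), and its paralogue Rps4l had 2 counts in 1 library. Rps27rt, read together with Rps27, went from 69.1 ± 4.19 to 47.5 ± 2.05 CPM. Rps26 (log2 fold change -0.53), Rps21 (-0.59) and Rps25 (-0.57), the last known for initiation on internal ribosome entry sites, were called lower as well, each without overlap. The calls of Rpsa, Rps4x, Rps27rt, Rps26, Rps21 and Rps25 held without any 1 library, and none of the 6 was called with library totals alone, where their log2 fold changes were -0.07 to -0.14.

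Rps6, the ribosomal substrate of the S6 kinases downstream of mTORC1, had 388, 345 and 358 CPM in Ctrl and 290, 285 and 289 in IRF3-2D. The IRF3-2D libraries are close together and all lie below Ctrl. It fell 1.26-fold (log2 fold change -0.34, SE 0.08, adjusted p = 0.0230) with TMM and had a log2 fold change of 0.12 with library totals alone (adjusted p = 0.361). Its call was lost without Ctrl replicate 3 (-0.35) and without IRF3-2D replicate 1, 2 or 3 (-0.35, -0.33 and -0.35). Rps27a, made as a fusion with ubiquitin, had 53.9, 56.0 and 55.7 CPM in Ctrl and 37.7, 47.2 and 45.3 in IRF3-2D. It was called lower (log2 fold change -0.35, adjusted p = 0.0419), with 0.11 for library totals alone, and this call was lost when any 1 of the 6 libraries was left out (-0.26 to -0.41). Rps19, the gene most often mutated in Diamond-Blackfan anaemia, was at 81.4, 91.6 and 92.1 CPM in Ctrl and 74.8, 73.1 and 81.2 in IRF3-2D. The Ctrl minimum and the IRF3-2D maximum of Rps19 nearly touch, and it was not called with TMM (log2 fold change -0.21, adjusted p = 0.119) but was called higher with library totals alone (0.24, adjusted p = 0.0409).

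The stalk, a projection of the large subunit that recruits elongation factors, is made of RPLP0, RPLP1 and RPLP2, and of its 3 rows 1 passed the test. Rplp1 stood at 197, 204 and 222 CPM in Ctrl and 146, 143 and 162 in IRF3-2D, with no overlap, and fell 1.38-fold (log2 fold change -0.47, SE 0.09, adjusted p = 0.00954, and -0.02 with library totals alone). The row of Rplp1 shares 75.05% of its words with other genes. Rplp2 stood at 16.1, 16.6 and 13.9 CPM in Ctrl and 16.6, 14.4 and 15.6 in IRF3-2D, with full overlap. Its log2 fold change was 0.00 (SE 0.13), took either sign among the scalings close to TMM, and was 0.45 with library totals alone, where it was called higher (adjusted p = 0.0279). Rplp0 had 46, 28 and 33 counts in Ctrl and 30, 72 and 14 in IRF3-2D, too few for an abundant ribosomal protein, and its log2 fold change of -0.17 (SE 0.60) could not be distinguished from 0 at this depth. Differences between the fold changes of the 3 stalk rows were not tested.

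Rpl5 and Rpl11 form the 5S particle with 5S ribosomal RNA, which can bind MDM2 and stabilise p53. Rpl5 was near 0, as given above. Rpl11 had the lowest fold change of all members (log2 fold change -1.56) and the largest SE (1.01), with 368, 278 and 144 counts in Ctrl and 168, 0 and 169 in IRF3-2D. The 0 stands beside 2 libraries of the same group at 168 and 169 counts, so the row is uneven within IRF3-2D, and the difference was not called (adjusted p = 0.306). Without the library at 0, IRF3-2D replicate 2, its log2 fold change was -0.97 (adjusted p = 0.161). Rpl10a had the second lowest fold change (-0.94, SE 0.52) on 15 to 72 counts per library, with overlap, and was not called either (adjusted p = 0.227).

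Rows on the upper side were few, and 3 of the 77 had IRF3-2D values that all lay above Ctrl, where 23.7% of all tested genes had: Rpl7l1, Rps14 and Rps19bp1. Rpl7l1, a relative of RPL7 that acts in the making of the large subunit, had 84.5, 91.7 and 90.3 CPM in Ctrl and 107, 126 and 118 in IRF3-2D. It rose 1.31-fold (log2 fold change 0.39, SE 0.09, adjusted p = 0.0180), and 1.80-fold with library totals alone. The call of Rpl7l1 with TMM was lost without Ctrl replicate 3 (0.40), IRF3-2D replicate 2 (0.34) or IRF3-2D replicate 3 (0.37). Rpl7 itself was at 0 in all libraries, so the pair cannot be compared. Rps14, a small subunit protein known from the 5q- syndrome, had 16, 20 and 21 counts in Ctrl and 41, 54 and 55 in IRF3-2D. With a log2 fold change of 1.09 and an SE of 0.34, it just missed the threshold with edgeR, where its adjusted p was 0.0509, against 0.0492 for DESeq2 and 0.0495 for limma-voom. The gene has 10 annotated transcripts, and with counts this low the row may miss most of its output. Rps19bp1 was even in Ctrl, at 9.96, 10.2 and 9.99 CPM, and stood at 14.7, 13.0 and 13.0 in IRF3-2D (log2 fold change 0.43, adjusted p = 0.0554, and 0.89 with adjusted p = 0.00282 for library totals alone). Rps27l, a paralogue of Rps27 that p53 is known to induce, had 51, 30 and 56 counts in Ctrl and 85, 66 and 58 in IRF3-2D, and overlapped on the TMM scale (log2 fold change 0.31, adjusted p = 0.509).

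**Figure D4:**
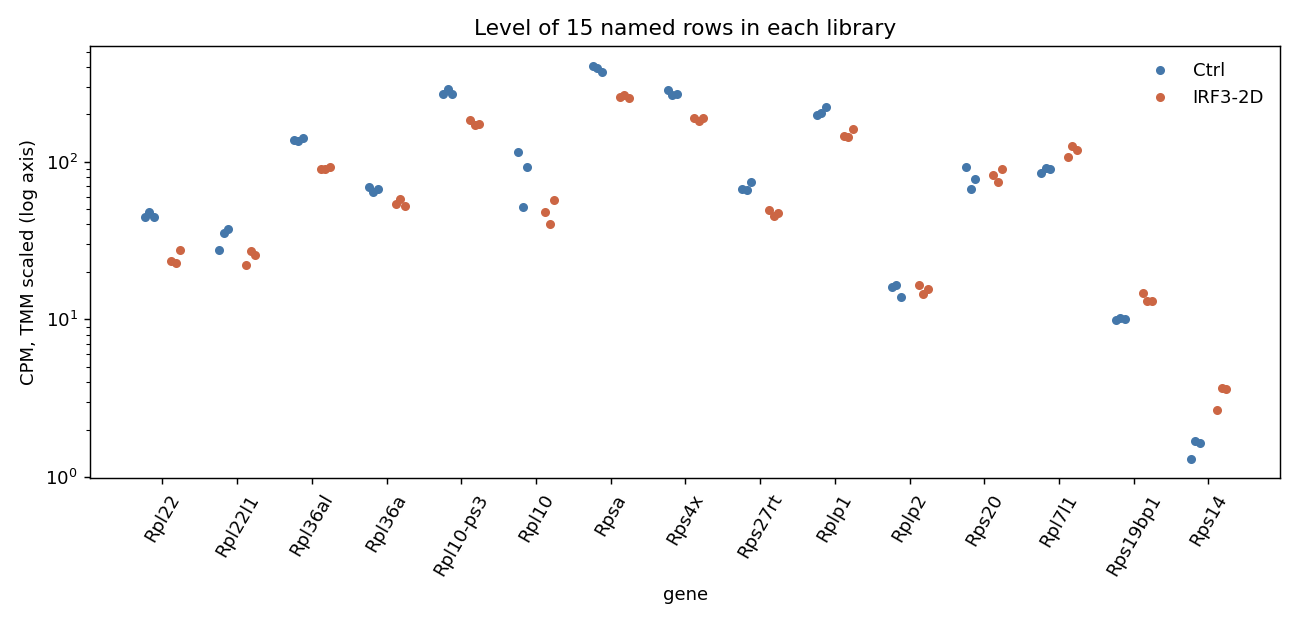
TMM-scaled CPM of 15 named rows in each of the 6 libraries, on a log axis. Ctrl libraries lie above IRF3-2D for Rpl22, Rpl36al and Rpsa, overlap for Rplp2 and Rps20, and lie below for Rpl7l1, Rps19bp1 and Rps14. With library totals alone the values of Rpl36a and Rpl22l1 turn to the other side of 0.

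Library totals alone called 12 rows higher: Rpl13a, Rpl17, Rpl29, Rpl30, Rpl39, Rpl7l1, Rplp2, Rps14, Rps15a, Rps19, Rps19bp1 and Rps20. Rps20 and Rpl30 had the largest values on this scale among the ribosomal protein genes of over 100 mean counts, 0.50 each (adjusted p = 0.0215 and 0.0328). With TMM both stood near 0 (0.06 and 0.05), with overlap: Rps20 had 92.1, 67.5 and 77.4 CPM in Ctrl and 82.5, 74.4 and 89.4 in IRF3-2D. Rps15a, Rpl39, Rpl13a, Rpl29 and Rpl17 had log2 fold changes of 0.23 to 0.35 with library totals and of -0.10 to -0.22 with TMM, where none of them was called. The share of all tested genes called higher with library totals was 41.6%.

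Levels per length, as CPM per kilobase of the median coding transcript over the 6 libraries, spread widely for proteins that enter the ribosome in matched amounts. Among the 57 ribosomal protein genes with a mean count of at least 100 the median level was 179 CPM per kb, from 17.2 in Rpl22 to 682 in Rps2. After Rps2, which lies near the messenger RNA entry channel, came Rpl13a (408), Rpl23a (396), Rps6 (371) and Rpl41 (368), whose product is among the shortest known proteins. Among these, Rps2 fell 1.36-fold (754, 813 and 829 CPM in Ctrl and 565, 602 and 592 in IRF3-2D, adjusted p = 0.00740, and a log2 fold change of 0.01 with library totals alone). Rpl23a fell 1.51-fold (299, 246 and 256 CPM against 179, 181 and 169, adjusted p = 0.00539), and it was not called with library totals alone. Rpl41 did not pass the test (log2 fold change -0.29, adjusted p = 0.0591, and 0.16 with library totals alone). Copies bear on these levels: Rpl23a shares 52.3% and Rps2 48.8% of their words with other genes. The length used bears on them too, at 2048 bases for Rpl22 and 495 for Rpl13a. Which annotated transcripts these livers held was not tested.

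Rows were also read by the share of their words held in common with other genes. Of 43 tested rows with under 25% shared, 17 were called lower and 1 higher (median log2 fold change -0.37), and of 34 with at least 25% shared, 22 were called lower (median -0.37). With library totals the medians were 0.08 in both. Of all tested genes, 13.1% were called lower and 13.2% higher with TMM. The median coefficient of variation in Ctrl was 9.32% for rows under 25% shared and 5.41% for the others. Whether these groups of rows differ was not tested. Of the 5 tested rows with 1 annotated transcript, Rpl10-ps3, Rplp1, Rps27rt and Rps3a1 were called lower and Rpl36 was not. These 5 rows share most of their words with other genes, from 75.05% in Rplp1 to 96.48% in Rpl10-ps3. The 14 tested rows with mean counts under 100 gave 0 calls with edgeR, 1 at an unadjusted p of 0.05, and 1 call each with DESeq2 and limma-voom (Rps14), and their median was -0.17. Their spread was wide, with a median coefficient of variation of 30.97% in Ctrl, against 5.72% for the 63 rows above that count.

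Rack1 and Fau encode ribosomal components whose symbols fall outside the series, and 1 of the 2 was called lower. Rack1, a scaffold on the small subunit, fell 1.31-fold from 249 ± 3.66 to 191 ± 6.97 CPM (adjusted p = 0.0103). Fau, a ubiquitin-like fusion with RPS30, was at 118 ± 4.40 and 113 ± 2.36 CPM and was not called (log2 fold change -0.06, adjusted p = 0.574). On library totals the log2 fold change of Rack1 was 0.07 and it was not called, and Fau was called higher (0.39, adjusted p = 0.00739).

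Factors that make and use ribosomes were read from lists of known genes. Of 29 tested ribosome biogenesis factors, 11 were called higher and 1 lower (median log2 fold change 0.27), where 13.2% of all tested genes were called higher and 13.1% lower, the shares against which the counts of the other lists can be read too. Rrp12, an export factor of both subunits, had 146, 114 and 131 counts in Ctrl and 331, 331 and 338 in IRF3-2D and rose 2.08-fold (adjusted p = 0.00153). Nop58, of the box C/D particles that methylate ribosomal RNA, rose 1.92-fold, and Ltv1, of small subunit assembly, rose 1.64-fold. The count of higher calls was 6 without Ctrl replicate 3 and 5 without IRF3-2D replicate 2, and 20 with library totals alone, where 41.6% of all tested genes were called higher. Whether this list differs from the ribosomal proteins was not tested. Mdn1 and Nmd3 of this list were at 0 in all libraries. Dkc1, Nop2, Brix1 and Nop14 had 0 to 10 counts per library and were not tested.

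Of 28 tested initiation factors, 6 were called lower and 3 higher (median 0.06), and the higher calls are near the 13.2% of all tested genes. Eif2s2, Eif3i, Eif3m and Pabpc1 had 0 to 19 counts per library and were not tested. Eif4b, which stimulates the helicase that unwinds messenger RNA and has a TOP message itself, fell 1.97-fold (424 ± 33.9 against 215 ± 15.2 CPM, adjusted p = 0.000699), also with library totals alone (log2 fold change -0.52). Eif1ax (1.67-fold) and Eif3f (1.33-fold) were lower too. The calls of these 3 held without any 1 library, but Eif1ax and Eif3f were not called with library totals alone (-0.29 and 0.04). The 3 higher calls were 1 without either of Ctrl replicates 1 and 3 or any IRF3-2D library, and library totals alone gave 18 higher and 1 lower, where 41.6% and 5.29% of all tested genes were. Of 8 elongation and termination factors 2 were called lower: Eef1b2, an exchange factor of elongation factor 1, fell 1.72-fold, and Eif5a fell 1.25-fold, a call that held only without IRF3-2D replicate 3 among the 6 omissions (log2 fold change -0.29 to -0.39 over them). Of 15 other genes with TOP messages 6 were called lower (median -0.18), and these include Eif4b, Eef1b2, Eif3f and Rack1 already named. The others, Tpt1 and Eif3h, lost their calls when any 1 library was left out (log2 fold changes -0.34 to -0.54 and -0.25 to -0.31).

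Of 17 tested genes of the mTORC1 pathway, 4 were called lower and 2 higher, against 13.1% and 13.2% of all tested genes, so that the higher calls are near that share. Deptor, which encodes an inhibitor bound to mTOR, had 5350, 6730 and 6484 counts in Ctrl and 1577, 1465 and 1624 in IRF3-2D and fell 4.91-fold (log2 fold change -2.29, SE 0.12, adjusted p = 4.4e-05, and -1.84 with library totals alone). Eif4ebp1, a repressor of initiation that mTORC1 phosphorylates, fell 1.51-fold, and Mtor fell 1.35-fold. The call of Eif4ebp1 (-0.52 to -0.70 over all omissions) was lost without Ctrl 3, IRF3-2D 1 or IRF3-2D 2, and that of Mtor (-0.38 to -0.51) without Ctrl 2, Ctrl 3, IRF3-2D 1 or IRF3-2D 3. The list's lower calls were 2 without Ctrl 2 or IRF3-2D 2 and 1 without Ctrl 3 or IRF3-2D 1. Its higher calls were 0 without Ctrl 2 or IRF3-2D 1, and 1 without IRF3-2D 2 or 3. Of 5 genes of the eIF2 kinases and their phosphatase, Eif2ak2, the interferon-inducible kinase PKR, was called higher (1.23-fold, adjusted p = 0.0286), a call that was lost without any 1 library (0.26 to 0.33) and with DESeq2. Rptor, at 2 counts in Ctrl replicate 1 and 0 elsewhere, and Eif2ak3, at 0 to 6 counts per library, were not tested. RNA levels do not show the activity of mTORC1 or of the eIF2 kinases.

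**Figure D5:**
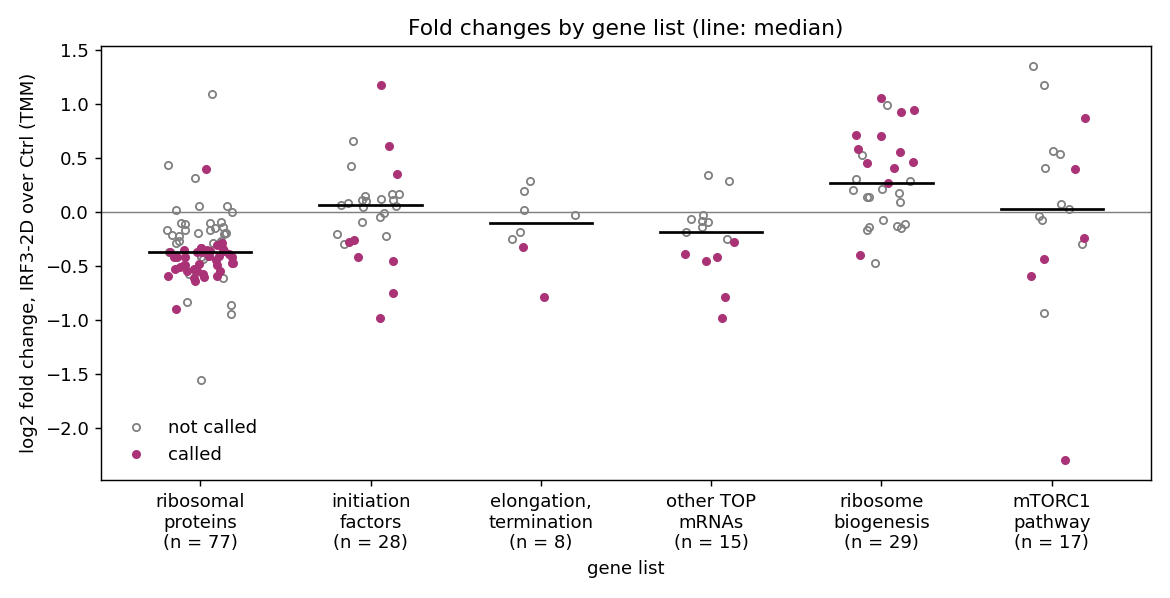
Log2 fold change (TMM) of each tested gene in the ribosomal protein rows and in 5 lists, with the median as a line and called genes filled. The median is -0.37 for the ribosomal proteins and 0.27 for the biogenesis factors, and some genes stand in both the TOP list and a factor list. With library totals alone the medians are 0.08 and 0.72.

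Markers of liver cell types were read beside the members. Of all tested genes, 13.1% were called lower and 13.2% higher with TMM, and 5.29% and 41.6% with library totals alone. Of 10 hepatocyte markers all were tested, 7 were called lower and 1 higher (4 and 2 with library totals alone), and their summed level was 144841 to 202326 CPM in Ctrl and 78978 to 89558 in IRF3-2D. Alb made up 81.9% of that difference, and without it the sums were 45100.5 to 58273.9 CPM in Ctrl and 32807.7 to 36841.9 in IRF3-2D. The hepatocyte marker called higher with TMM was Ttr (1.79-fold). Of 11 tested markers of Kupffer cells and macrophages 4 were called higher (2 to 7 when 1 library was left out, and 8 with library totals alone), with sums of 514 to 612 CPM in Ctrl and 923 to 1253 in IRF3-2D. Mpeg1 made up 69.0% of that difference between the groups, and without it the sums were 411 to 456 and 484 to 693 CPM, while Clec4f, Vsig4 and C1qc were not called (log2 fold changes 0.36, 0.25 and 0.39) and Adgre1 had -0.56 on few counts. Of 10 tested endothelial markers 5 were called lower, with sums of 529 to 553 and 348 to 468 CPM. The endothelial calls fell to 2 or 3 when any 1 library was left out, and library totals alone gave 0 lower and 1 higher (median log2 fold change 0.01). Of 8 tested stellate cell markers 1 was called lower (0 lower and 1 higher with library totals alone), with sums of 212 to 277 and 185 to 264 CPM, and Pdgfrb was at 0. That 1 lower call is near the 13.1% of all tested genes. Summed markers of cholangiocytes (32.1 to 52.1 and 32.0 to 41.0 CPM), erythroid cells (746 to 1471 and 648 to 1263), T and NK cells (4.45 to 8.16 and 6.14 to 10.2), B cells (1.80 to 3.43 and 2.10 to 4.07) and neutrophils (3.36 to 7.03 and 4.39 to 10.02) overlapped between the groups, and Cd3g and Pax5 were at 0. The part of these cell types in the levels of the members was not tested.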

How the data were processed

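RNA-seq of 6 mouse liver samples, 3 Ctrl and 3 IRF3-2D, was used; groups and replicate numbers come from the titles. The deposited values are estimated counts per gene and library; the authors made them with Salmon 1.2.1, per the submitters' processing notes, which also name GRCm38 and mm10. The annotation used in that step is not given in the sources used here. All values were whole, so they were taken as rounded estimates and used as deposited. Libraries were poly-A selected and strand-specific, per the labels' protocols.

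Of 20894 rows, 20817 had a symbol in GENCODE M21. edgeR 4.0.16 (R 4.3.3) was run with filterByExpr defaults, TMM and group as the only term, by the quasi-likelihood F-test with Benjamini-Hochberg adjustment over 10802 genes at 0.05, after a test on simulated data with 200 changed genes. Library totals alone, other size factors, DESeq2 1.42.0, limma-voom 3.58.1, other filters, the replicate block and leaving out each library were alternatives. Replicates differed by more than sampling noise (chi-square per degree of freedom 18.9 to 110), so none was merged. Same-numbered libraries did not deviate together, so the numbers were not used to pair samples. A count of 0 allows up to 3 counts, for counting error only. Each SE of a log2 fold change is that fold change, without its sign, divided by the square root of its F statistic. Shared words are the percent of 31-base words of a gene's GENCODE M21 transcripts also found in other genes.

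The members and lists, cell type markers included, were chosen with earlier results of these data known, and the lists come from textbook knowledge. Named members are the 10 called with the smallest adjusted p, the 3 lowest and 3 highest fold changes, those with a set role (stalk, Rpsa, Rps6, Rpl5, Rpl11, Rps27a, Rps19), paralogue pairs, the 5 highest per kilobase, those called with library totals, and 3 untested rows of highest count. From other lists the 3 called genes of smallest adjusted p were named, with Fau and Rack1. 1 gene of these lists is not reported here and was left out of the counts.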

Additional observations from a re-analysis of the deposited data

How the results depend on the processing

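The scaling decided the direction of most values. With library totals alone, 1 member was called lower and 12 higher, and the median log2 fold change was 0.084. Of all tested genes, 5.29% were called lower and 41.6% higher with library totals alone. With totals that leave out the 20 most abundant genes there were 8 lower and 3 higher, and the median was -0.13. The share of all tested genes called on that scale is not given here. Counts on it, for the members and the lists below, are therefore not read against a background. In the order lower and higher, library totals alone gave 1 and 7 for the large subunit, 0 and 4 for the small subunit, 0 and 1 for Fau and Rack1, 1 and 18 for initiation factors, 1 and 4 for elongation factors, 2 and 6 for other TOP genes, 0 and 20 for biogenesis factors, 1 and 8 for mTORC1 genes, and 3 higher eIF2 kinase genes. Totals without the 20 most abundant genes gave 3 lower in the large subunit, 5 and 1 in the small subunit, 0 lower among Fau and Rack1, 2 and 13 for initiation, 1 and 3 for elongation, 2 and 2 for other TOP genes, 0 lower for biogenesis, 1 and 5 for mTORC1 genes and 2 higher eIF2 kinase genes. DESeq2 and limma-voom called 2 members higher, of which 1 was in the small subunit, and DESeq2 called 0 eIF2 kinase genes. Library totals alone turned the log2 fold changes of Rpl13a (0.28), Rpl17 (0.23), Rpl22l1 (0.045), Rpl29 (0.25), Rpl36a (0.16), Rpl39 (0.35), Rpl41 (0.16), Rplp0 (0.31), Rps15a (0.31), Rps19 (0.24), Rps2 (0.0086), Rps27a (0.11) and Rps6 (0.12) above 0. Totals without the 20 most abundant genes did so for Rpl13a (0.071), Rpl17 (0.021), Rpl29 (0.043), Rpl39 (0.13), Rplp0 (0.079), Rps15a (0.10) and Rps19 (0.032). Rplp2 was below 0 with RLE (-0.028), upper-quartile factors (-0.018), TMM without the members (-0.0057), DESeq2 (-0.028) and a mean count of at least 50 (-0.0055). With RLE, upper-quartile factors, TMM without the members, DESeq2, limma-voom or a mean count of at least 50, all 39 lower calls held, and with no filter 34 did.

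Leaving out 1 library at a time gave 22 to 33 members lower and 0 to 1 higher. The ranges were 11 to 15 lower and 0 to 1 higher in the large subunit, 11 to 18 lower in the small subunit, 4 to 5 lower and 1 to 2 higher for initiation, 1 to 3 lower for elongation, 0 to 1 higher for other TOP genes, 0 to 2 lower and 5 to 11 higher for biogenesis, 1 to 3 lower and 0 to 2 higher for mTORC1 genes, and 0 higher for eIF2 kinase genes. Log2 fold changes that changed sign ranged from -0.077 to 0.054 for Rplp2, -0.054 to 0.14 for Rpl30, -0.048 to 0.18 for Rps20 and -1.01 to 0.22 for Rplp0.

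With the replicate block 33 members were lower and 1 higher, 31 of them among the 39, and 1 elongation factor was lower, 7 biogenesis factors were higher and 0 eIF2 kinase genes were. Rps6, Rpl36a and Rps27a lost their calls under the block, and Rpl10 and Rpl22l1 gained one. Deviations of same-numbered libraries correlated at 0.10, -0.03 and 0.04, and not every library correlated best with its own number. The members' share of counts was 0.858% in Ctrl and 0.893% in IRF3-2D, 1.29% and 1.16% without the 20 most abundant genes, and 0.972% and 0.974% without mitochondrially encoded genes. Rows with few counts, Rplp0 and Rps14 among them, limit what can be said of single genes.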
